A study of Homo sapiens with 12 samples.

Results

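The synaptotagmin-like proteins (SYTL) and the RAB27 and RAB3 GTPases of regulated secretion were followed in human prostate cancer cells with more or less ARv7. The group held 10 genes of the 19973 in the deposited table: SYTL1, SYTL2, SYTL3, SYTL4 and SYTL5, RAB27A and RAB27B, and RAB3A, RAB3B and RAB3D. All 10 were found by gene name. SYTL2 and RAB3B were chosen by their measured changes in these same libraries, in either cell line, so their values are given as a description with no test. The other 8 genes came in as relatives of these, though earlier results of these data were known when members were chosen. They were tested together with all genes that passed a filter on low counts.

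Secretory vesicles that wait at the plasma membrane carry small GTPases of the RAB27 and RAB3 families. In the GTP-bound state these recruit effectors, among them the SYTL proteins, which bind RAB27 through an amino-terminal domain and membrane lipids through C2 domains, and so help vesicles to dock. In the prostate, luminal cells secrete prostate-specific antigen and prostatic acid phosphatase, and RAB27A with SYTL1 is known to take part in this release in LNCaP cells.

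RNA sequencing covered 12 libraries in 4 groups of 3. C4-2 cells, a castration-resistant derivative of LNCaP, carried a lentivirus expressing ARv7, a transcription factor found in castration-resistant disease, or a control lentivirus. 22Rv-1 cells, a prostate cancer line from the CWR22R xenograft with ARv7 of its own, carried a lentiviral short hairpin against ARv7 (shARv7) or a control hairpin (shcontrol). All cells were infected, selected with puromycin and grown in medium with serum, and each group was plated as 3 dishes. The sources give no number of selected populations behind a group, so all p-values measure the spread between dishes, which may be technical.

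Total counts were 12318529 to 14672948 per library, and 3 counts in a library correspond to 0.204 to 0.244 CPM (counts scaled to a common library total). Means in the text carry the SD of 3 libraries. The luminal markers KRT8, KRT18, EPCAM, HOXB13, KLK3, TMPRSS2 and FOLH1 averaged at least 1 CPM in every group. Their sum was 6254 to 6359 CPM in C4-2 ARv7 and 3909 to 4213 in C4-2 control libraries, and 1818 to 1879 in 22Rv-1 shARv7 and 1507 to 1515 in 22Rv-1 shcontrol libraries, and its part in the results was not tested. In C4-2 KLK3 differed most, at a mean of 2539 CPM with ARv7 and 672 in control cells. TMPRSS2 and FOLH1 were also higher with ARv7 (1426 and 1239 CPM) than in control cells (999 and 970 CPM). KRT18 was at 204 CPM with ARv7 and 208 in control cells. By contrast, KRT8, EPCAM and HOXB13 had lower means with ARv7 (292, 197 and 395 CPM) than in control cells (381, 253 and 577 CPM). C4-2 control replicate 3 lay farthest from its own replicates: chi-square over its degrees of freedom was 12.3 and 6.85 in its pairs and 2.10 to 4.64 in all others, where counting error alone gives about 1.

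CPM in the text are normalised with TMM over all 12 libraries, so that groups and lines can be set side by side for a gene. Log2 changes come from an edgeR quasi-likelihood fit of each line, and a gene was called at a Benjamini-Hochberg adjusted p under 0.05 over all genes tested. FPKM, counts per length and library total as deposited, are used to compare genes with each other and for sums over a family. They carry no TMM scaling, so sums of FPKM were not tested between groups.

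Among the 8 genes that were not picked for their changes, 4 passed in C4-2: SYTL4, RAB27B and RAB3D were higher with ARv7 and RAB27A was lower. That share is near the background, since 59.1% of all 12783 genes tested were called in C4-2, 29.6% higher and 29.5% lower. Those calls were 3781 higher and 3776 lower, or 5159 higher and 2523 lower with total counts in place of TMM. In 22Rv-1, 6 of the 8 passed: SYTL5, RAB27B and RAB3D were higher in shARv7 cells, and SYTL1, SYTL4 and RAB27A were lower. There the background was 48.0% of 13459 genes, 23.9% higher and 24.1% lower. RAB27A, RAB27B and RAB3D were called with the same sign in both lines although ARv7 was raised in C4-2 and depleted in 22Rv-1, and SYTL4 was called with opposite signs. Of 12080 genes tested in both lines, 14.1% were called with the same sign and 16.5% with opposite signs. All 10 genes passed the filter on low counts in both lines.

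**Figure D1:**
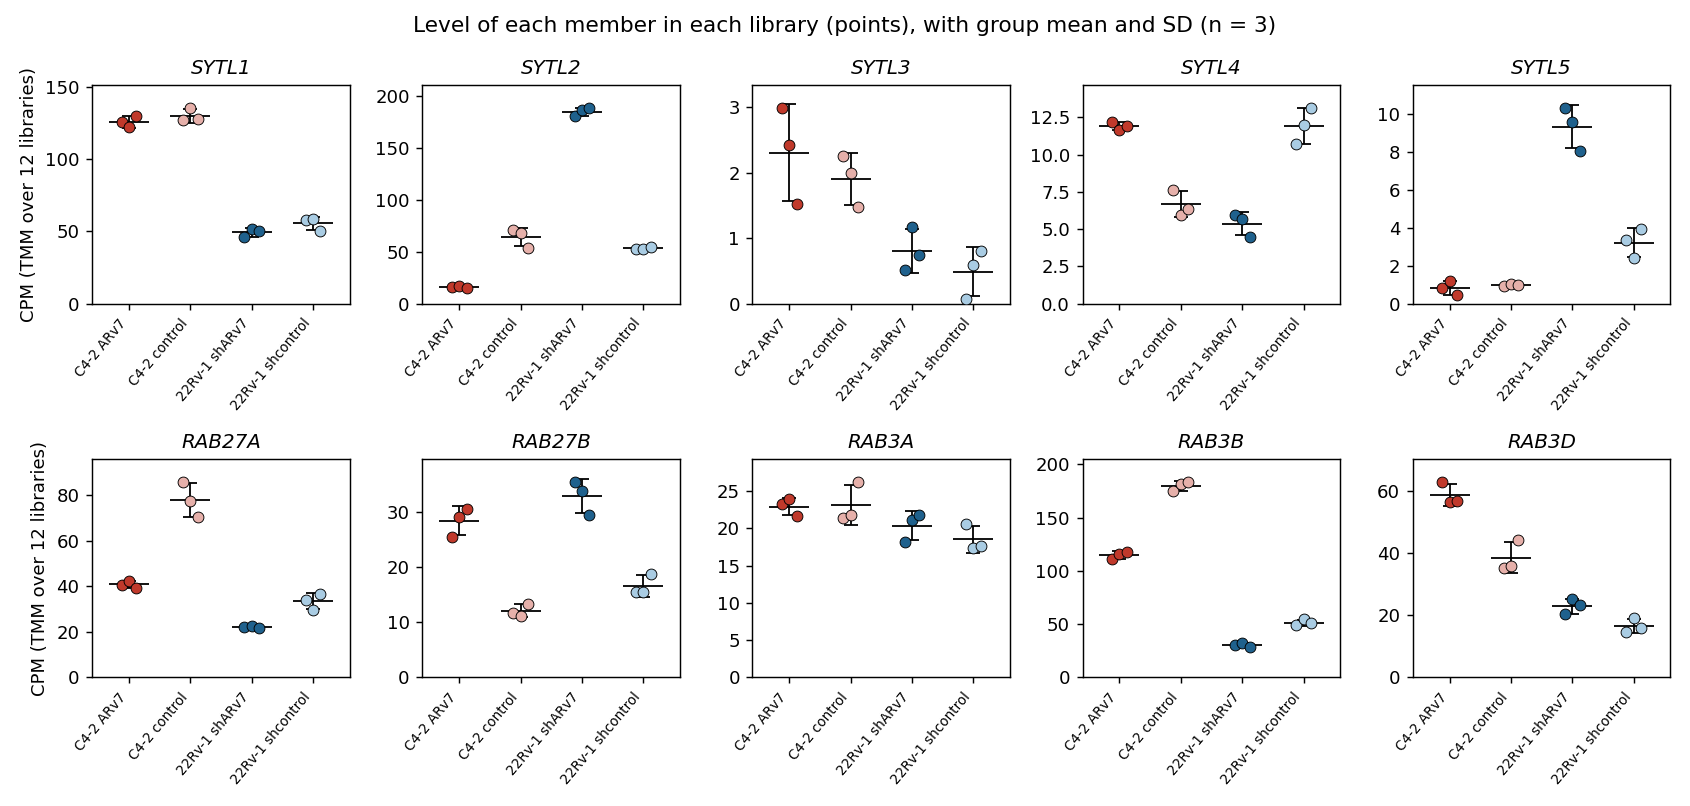
Level of each gene (vertical axis, CPM with TMM over 12 libraries, from 0) in the 4 groups. Points are libraries, and lines with bars are group means and SD (n = 3). SYTL2 is lowest in C4-2 ARv7 cells, at 15.0 to 17.5 CPM, and highest in 22Rv-1 shARv7 cells, at 180.3 to 188, while RAB27B is higher than its control in both lines.

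The RAB27 pair moved apart in both lines, RAB27A lower and RAB27B higher. RAB27A (ENSG00000069974, chromosome 15, 55202966 to 55319113, minus strand on GRCh38) encodes the GTPase of melanosomes and lytic granules. It stood at 40.8, 42.6 and 39.4 CPM in C4-2 ARv7 cells and at 85.9, 77.6 and 70.5 in C4-2 control cells. The groups did not overlap, and every ARv7 library was below every control (1.92-fold lower, log2 -0.94 ± 0.08 SE, edgeR adjusted p = 7.54e-09). The 22Rv-1 levels were 22.3, 22.8 and 21.8 CPM in shARv7 cells and 34.0, 29.8 and 36.8 in shcontrol cells. Again the groups lay apart, with depleted cells lower (1.50-fold lower, log2 -0.59 ± 0.09 SE, edgeR adjusted p = 1.71e-07). RAB27A shares 183 exonic bases with PIGBOS1 and 154 with PIGB, genes at 2.47 to 7.22 and 11.5 to 20.5 CPM over all libraries.

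RAB27B (ENSG00000041353, chromosome 18, 54717860 to 54895516, plus strand) encodes the close relative that serves platelet dense granules and, with RAB27A, exosome release. Its levels were 25.6, 29.1 and 30.7 CPM in C4-2 ARv7 cells and 11.8, 11.2 and 13.4 in C4-2 control cells. All ARv7 libraries were above all controls (2.32-fold, log2 1.22 ± 0.12 SE, edgeR adjusted p = 3.17e-08). In 22Rv-1 the levels were 35.5, 33.9 and 29.6 CPM in shARv7 cells and 15.5, 15.5 and 18.8 in shcontrol cells. Here too the groups did not overlap (1.99-fold higher, log2 0.99 ± 0.10 SE, edgeR adjusted p = 8.22e-14). C4-2 ARv7 and 22Rv-1 shARv7 libraries overlapped with each other. RAB27B shares 341 exonic bases with AC098848.1 on the other strand, which has no row in the deposited table.

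Per length, RAB27B made up 32.9, 34.9 and 37.9% of RAB27 FPKM in C4-2 ARv7 cells and 9.72, 10.2 and 12.98% in C4-2 control cells. In 22Rv-1 it made up 55.5, 53.8 and 51.5% in shARv7 cells and 26.3, 28.9 and 28.6% in shcontrol cells. The difference was 24.3 percentage points in C4-2 and 25.7 in 22Rv-1. Each had p = 0.1 in an exact two-sided permutation test, the smallest that 3 libraries against 3 allow. 22Rv-1 shARv7 was the group in which RAB27B exceeded RAB27A. Summed RAB27 FPKM was 11.4 ± 0.417 in C4-2 ARv7 and 14.4 ± 1.55 in C4-2 control cells. It was 9.07 ± 0.507 in 22Rv-1 shARv7 and 8.46 ± 0.906 in 22Rv-1 shcontrol cells, where libraries of both groups overlapped.

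**Figure D2:**
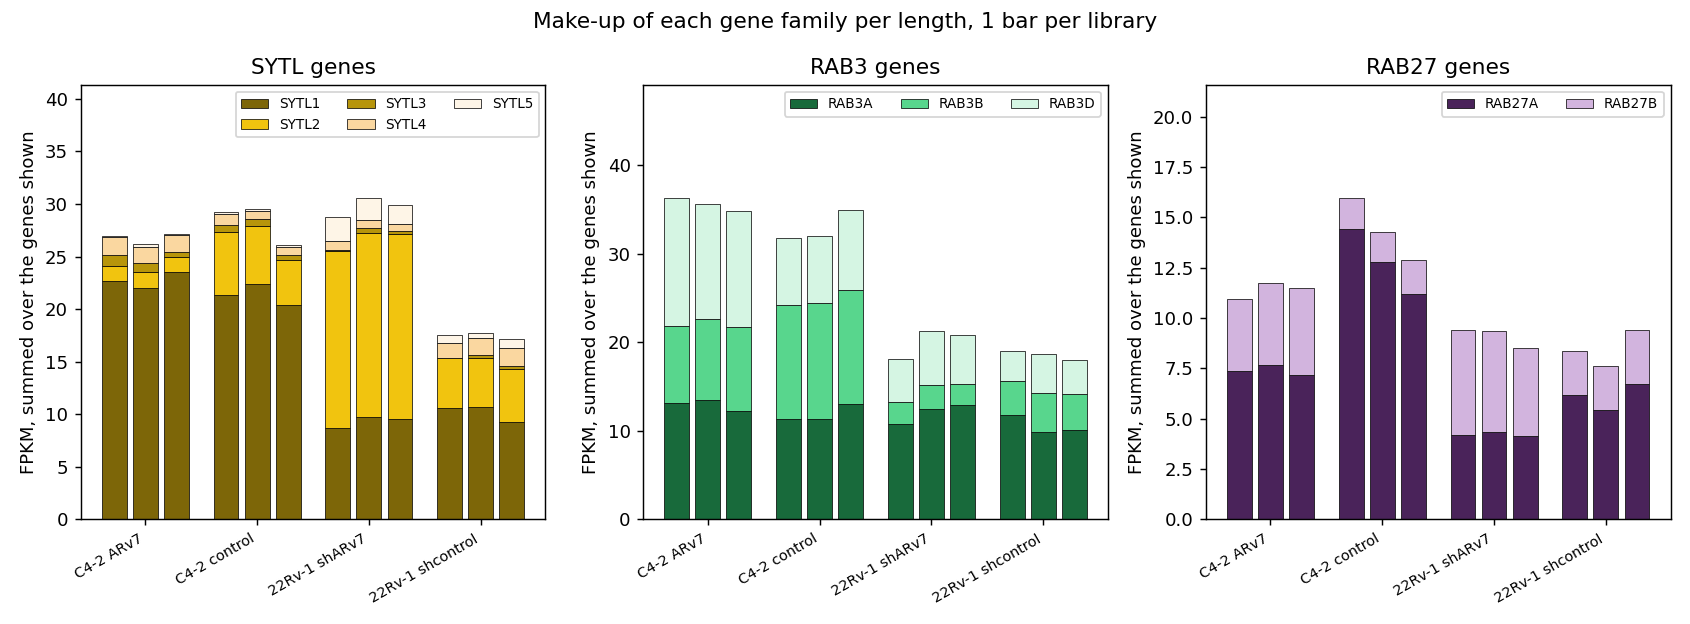
FPKM of the SYTL, RAB3 and RAB27 genes stacked in each library (vertical axis, FPKM from 0), 1 bar per library and 3 bars per group. The RAB27B part of the RAB27 bars is larger in C4-2 ARv7 than in C4-2 control cells and larger in 22Rv-1 shARv7 than in 22Rv-1 shcontrol cells, and SYTL2 holds the largest part of the SYTL bars in 22Rv-1 shARv7 cells.

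Because the pair moved in opposite directions, the windows before their start sites were read for sequence motifs. The RefSeq promoter table (GRCh38.p14, 300 bases a window, 250 of them before the start) held 17 windows for 9 of the 10 genes, and none for SYTL2. The hexamer AGAACA, the core of steroid hormone response elements, was searched on both strands. It was in 3 of the 17 windows, of RAB27A, RAB27B and SYTL5, and in 14.8% of all 35116 windows. The full element, which pairs that hexamer with its reverse complement around a gap of 3 bases, was in none of the 17 and in 1 of 35116. The E-box CACGTG was in none of the 17 and in 7.26% of all windows. In RAB27A and RAB27B the match lay at a start site other than the first, 210 and 236 bases upstream, and the gene counts do not tell which start was used. The 250 bases before these starts are shown with the matches in capitals, RAB27A at chr15:55270400-55270649 on the minus strand and RAB27B at chr18:54828227-54828476 on the plus strand.
RAB27A: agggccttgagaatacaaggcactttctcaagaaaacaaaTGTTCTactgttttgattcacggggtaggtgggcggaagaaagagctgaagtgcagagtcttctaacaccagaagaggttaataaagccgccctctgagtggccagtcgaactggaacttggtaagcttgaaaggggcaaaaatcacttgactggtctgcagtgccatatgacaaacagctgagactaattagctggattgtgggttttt
RAB27B: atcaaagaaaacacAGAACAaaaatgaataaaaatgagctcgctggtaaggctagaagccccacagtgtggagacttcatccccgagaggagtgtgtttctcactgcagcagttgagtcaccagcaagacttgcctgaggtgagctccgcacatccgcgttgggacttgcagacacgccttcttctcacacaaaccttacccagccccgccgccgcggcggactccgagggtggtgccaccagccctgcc
A match is a stretch of letters and not a binding site.

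RAB3B, a RAB3 GTPase of regulated exocytosis, was lower in both lines (ENSG00000169213, chromosome 1, 51907956 to 51990700, minus strand). It stood at 111, 116 and 118 CPM in C4-2 ARv7 cells and at 175, 182 and 183 in C4-2 control cells. In 22Rv-1 it stood at 30.9, 32.3 and 28.3 CPM in shARv7 cells and at 48.9, 54.6 and 51.0 in shcontrol cells. The log2 change was -0.66 in C4-2 and -0.75 in 22Rv-1. The groups did not overlap in either line, but RAB3B was picked for such changes, so the separation is a description only. All 4 groups lay apart from each other, with C4-2 control highest and 22Rv-1 shARv7 lowest.

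RAB3D, the RAB3 GTPase of exocrine secretory granules, was higher in both lines (ENSG00000105514, chromosome 19, 11322068 to 11346270, minus strand). It stood at 63.0, 56.5 and 56.9 CPM in C4-2 ARv7 cells and at 35.5, 35.97 and 44.4 in C4-2 control cells (1.51-fold, log2 0.60 ± 0.09 SE, edgeR adjusted p = 1.17e-05). Its 22Rv-1 levels were 20.4, 25.3 and 23.2 CPM in shARv7 cells and 14.5, 19.1 and 16.1 in shcontrol cells (1.39-fold, log2 0.48 ± 0.11 SE, edgeR adjusted p = 0.000158). Neither pair of groups overlapped. RAB3D shares 144 exonic bases each with TMEM205 and CCDC159, genes at 3.5 to 7.30 and 10.9 to 25.2 CPM over all libraries. It also shares 906 with AC011472.3 on the other strand and 49 with AC011472.2, which have no row in the deposited table.

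RAB3A, the RAB3 GTPase of synaptic vesicles, differed little between the groups (ENSG00000105649, chromosome 19, 18196784 to 18204042, minus strand). It stood at 23.2, 23.9 and 21.6 CPM in C4-2 ARv7 cells and at 21.4, 21.8 and 26.2 in C4-2 control cells. In 22Rv-1 it stood at 18.2, 21.1 and 21.8 CPM in shARv7 cells and at 20.6, 17.4 and 17.6 in shcontrol cells. The groups overlapped in both lines and neither change passed (log2 -0.02 ± 0.11 SE, edgeR adjusted p = 0.859 in C4-2; log2 0.14 ± 0.11 SE, edgeR adjusted p = 0.291 in 22Rv-1). The sign in C4-2 turned with total counts in place of TMM (log2 0.12). RAB3A shares 165 exonic bases with MPV17L2 on the other strand, at 19.9 to 27.8 CPM over all libraries.

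The remaining RAB3 gene, RAB3C, had at most 1 count in any C4-2 library and 2 to 8 in the 22Rv-1 libraries. Per length, RAB3D made up 38.1% ± 1.69 of the FPKM of RAB3A, RAB3B and RAB3D in C4-2 ARv7 cells and 24.5% ± 1.2 in C4-2 control cells. RAB3B made up 25.6% ± 1.42 in C4-2 ARv7 cells and 39.4% ± 2.39 in C4-2 control cells. RAB3D was the higher of the pair in C4-2 ARv7 cells and RAB3B in C4-2 control cells. In 22Rv-1 shARv7 cells RAB3D made up 27.5% ± 1.06 and RAB3B 12.6% ± 1.37, against 20.8% ± 3.00 and 22.2% ± 1.50 in shcontrol cells, where the libraries of the pair overlapped. The summed RAB3 FPKM was 35.6 ± 0.751 in C4-2 ARv7 and 32.9 ± 1.72 in C4-2 control cells, and 20.1 ± 1.70 in 22Rv-1 shARv7 and 18.5 ± 0.540 in 22Rv-1 shcontrol cells.

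SYTL2, the effector that tethers RAB27 vesicles to the plasma membrane through phosphatidylserine, moved in opposite directions in the lines (ENSG00000137501, chromosome 11, 85694224 to 85811159, minus strand). It stood at 16.2, 17.5 and 15.0 CPM in C4-2 ARv7 cells and at 70.9, 67.7 and 54.1 in C4-2 control cells. In 22Rv-1 it stood at 180.3, 185.99 and 188 CPM in shARv7 cells and at 52.5, 52.3 and 54.9 in shcontrol cells. It was lower where ARv7 was expressed and higher where ARv7 was depleted (log2 -1.99 in C4-2 and 1.80 in 22Rv-1). The groups did not overlap in either line, but SYTL2 was picked for such changes, so the separation is a description only. The control cells of both lines overlapped.

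SYTL4, also called granuphilin, which docks insulin granules in pancreatic beta cells, moved the other way in each line (ENSG00000102362, X chromosome, 100674491 to 100732123, minus strand). It stood at 12.2, 11.6 and 11.9 CPM in C4-2 ARv7 cells and at 7.65, 5.97 and 6.37 in C4-2 control cells. All ARv7 libraries were above the controls (1.77-fold, log2 0.83 ± 0.15 SE, edgeR adjusted p = 0.000114). In 22Rv-1 it stood at 5.95, 5.65 and 4.48 CPM in shARv7 cells and at 10.7, 11.97 and 13.1 in shcontrol cells. Here the depleted libraries were all below the controls (2.22-fold lower, log2 -1.15 ± 0.16 SE, edgeR adjusted p = 3.94e-09). SYTL4 shares 1298 exonic bases with SRPX2 on the other strand, and SRPX2 stood at 0.145 to 1.01 CPM over all libraries.

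SYTL5, a RAB27-binding member of the family, was near the detection floor in C4-2 and changed in 22Rv-1 (ENSG00000147041, X chromosome, 38006553 to 38128819, plus strand). It had 142, 131 and 119 counts in 22Rv-1 shARv7 libraries and 49, 32 and 59 in shcontrol libraries. These equal 10.3, 9.62 and 8.08 CPM against 3.36, 2.39 and 3.94, without overlap (2.87-fold higher, log2 1.52 ± 0.19 SE, edgeR adjusted p = 2.96e-10). In C4-2 it had 12, 17 and 6 counts with ARv7 and 13, 14 and 13 in control cells. The C4-2 groups overlapped, with a ratio of 0.935 by total counts (exact 95% counting interval 0.577 to 1.51) and edgeR adjusted p = 0.639.

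SYTL1 (ENSG00000142765, chromosome 1, 27342020 to 27353937, plus strand) is the effector tied to prostate secretion. It was the most abundant SYTL gene per length in both C4-2 groups and in 22Rv-1 shcontrol cells. It stood at 126, 122 and 129.6 CPM in C4-2 ARv7 cells and at 127, 135 and 128 in C4-2 control cells, which overlapped (log2 -0.06 ± 0.06 SE, edgeR adjusted p = 0.437; log2 0.09 with total counts). Levels in 22Rv-1 were 46.0, 51.5 and 50.3 CPM in shARv7 cells and 58.1, 58.5 and 50.6 in shcontrol cells. These groups overlapped too, and the call of a fall rests close to the threshold (1.13-fold lower, log2 -0.17 ± 0.07 SE, edgeR adjusted p = 0.0486). It was lost in 9 of 14 alternative fits, for instance in DESeq2 (adjusted p = 0.0811), with total counts (edgeR adjusted p = 0.163) and without shARv7 replicate 1 (edgeR adjusted p = 0.225).

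SYTL3, which moves lytic granules in cytotoxic T cells, was scarce everywhere (ENSG00000164674, chromosome 6, 158650014 to 158764876, plus strand). It had 44, 34 and 19 counts in C4-2 ARv7 libraries and 31, 27 and 19 in C4-2 control libraries (edgeR adjusted p = 0.487). In 22Rv-1 it had 7, 16 and 11 counts in shARv7 libraries and 1, 8 and 12 in shcontrol libraries, a ratio of 1.71 by total counts (exact 95% counting interval 0.964 to 3.10; edgeR adjusted p = 0.289). The 22Rv-1 change was log2 0.72, or 0.20 without shcontrol replicate 1, 0.36 without shARv7 replicate 2 and 1.30 without shcontrol replicate 3. A difference was not detectable at this depth in either line.

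Per length, SYTL1 held 84.9% ± 1.61 of SYTL FPKM in C4-2 ARv7 cells and 75.7% ± 2.49 in C4-2 control cells, while SYTL2 held 5.44% ± 0.513 with ARv7 and 18.5% ± 1.97 in control cells. In 22Rv-1 shARv7 cells SYTL2 held 58.3% ± 1.01 and SYTL1 31.3% ± 1.04, against 27.6% ± 1.29 for SYTL2 and 58.1% ± 3.65 for SYTL1 in shcontrol cells. The summed SYTL FPKM was 26.8 ± 0.514 in C4-2 ARv7 and 28.3 ± 1.90 in C4-2 control cells. It was 29.7 ± 0.937 in 22Rv-1 shARv7 and 17.5 ± 0.284 in 22Rv-1 shcontrol cells. SYTL2 was the gene with the highest FPKM of all 10 in 22Rv-1 shARv7 cells, at 17.3 ± 0.441, and ranked eighth in C4-2 ARv7 cells, at 1.46 ± 0.110.

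**Figure D3:**
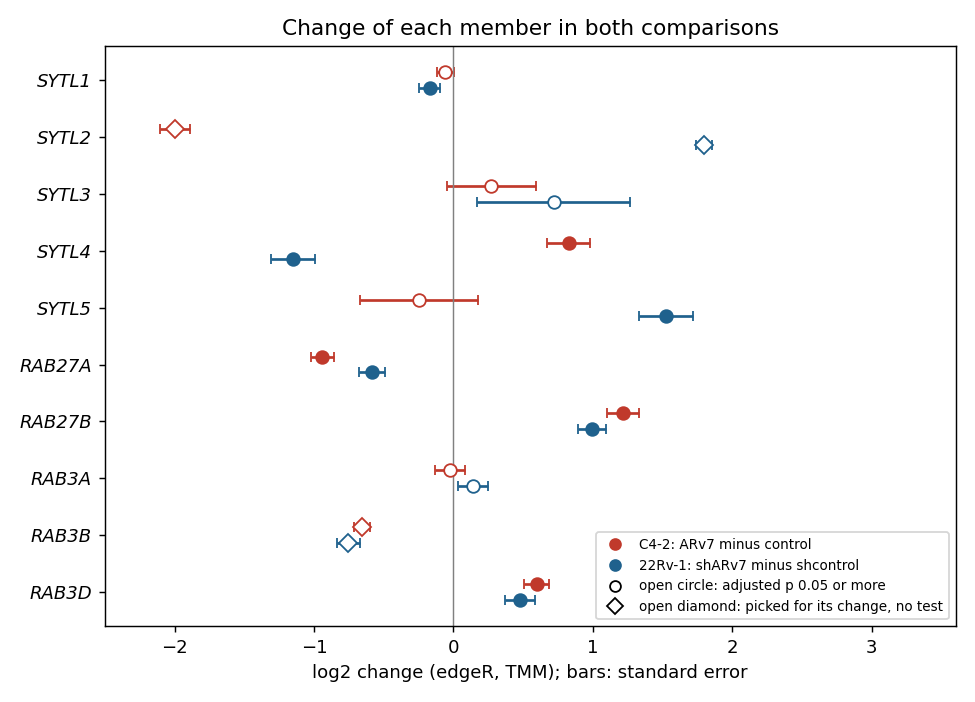
Log2 change of each gene (horizontal axis, edgeR with TMM; bars are standard errors) in C4-2 cells, ARv7 minus control, and in 22Rv-1 cells, shARv7 minus shcontrol. RAB27A, RAB27B, RAB3B and RAB3D lie on the same side of 0 in both lines, while SYTL2 and SYTL4 lie on opposite sides. Open diamonds mark SYTL2 and RAB3B, which were picked for their changes and not tested, so their bars are not to be read as a test.

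Whether the change from lower to higher ARv7 differed between the lines was tested in a fit of all 12 libraries. The difference was the C4-2 change (ARv7 minus control) minus the 22Rv-1 change (shcontrol minus shARv7). ARv7 was raised by a virus in C4-2 and depleted by a hairpin in 22Rv-1, so line and manipulation cannot be told apart in it. Of all 14235 genes tested, 50.7% were called, and 5 of the 8 relatives were. The difference was 2.22 ± 0.16 SE on the log2 scale for RAB27B (edgeR adjusted p = 2.32e-14) and -1.52 ± 0.12 SE for RAB27A (edgeR adjusted p = 7.85e-13). RAB3D differed by 1.08 ± 0.15 SE (edgeR adjusted p = 1.10e-07). SYTL5 differed by 1.29 ± 0.46 SE (edgeR adjusted p = 0.0200), a call lost without C4-2 ARv7 replicate 2 (edgeR adjusted p = 0.154). SYTL1 differed by -0.22 ± 0.10 SE (edgeR adjusted p = 0.0496), which 13 of 19 alternative fits did not call. For SYTL4 the difference was -0.32 ± 0.22 SE (edgeR adjusted p = 0.247), so the data do not tell its changes in the lines apart, and SYTL3 and RAB3A did not pass (edgeR adjusted p = 0.221 and 0.542). The RAB3A difference, 0.12 on the log2 scale in edgeR, was 0.29 and called in limma on log2(FPKM + 1) (adjusted p = 0.0407). FPKM carry no TMM scaling, and with total counts in place of TMM the RAB3A difference was 0.31 and not called.

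The genes whose pattern came nearest to RAB3B over the 12 libraries were RBM47, an RNA-binding protein gene, WDR7, PC, which encodes pyruvate carboxylase, CCDC102A and MFAP3L. Their log2 CPM, centred on the mean of each gene, differed from RAB3B by a root mean square of 0.109, 0.140, 0.142, 0.170 and 0.183 among 11159 genes searched. RBM47 averaged 174 CPM in C4-2 ARv7 and 248 in C4-2 control cells, and 40.4 in 22Rv-1 shARv7 and 66.7 in 22Rv-1 shcontrol cells. The genes nearest to SYTL2 lay farther off. The distance was not scaled to how much a gene varies, so values for SYTL2 and RAB3B do not compare closeness of pattern. CGN, which encodes the tight junction protein cingulin, was nearest at 0.499, ahead of YPEL3, the proprotein convertase gene FURIN, the endothelin gene EDN2 and the kinase gene PIM3 at 0.582 to 0.623. CGN averaged 33.0 CPM in C4-2 ARv7 and 91.4 in C4-2 control cells, and 210.7 in 22Rv-1 shARv7 and 147 in 22Rv-1 shcontrol cells.

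The wider machinery was followed in 6 lists, given here by counts, to be read against the 59.1% of all genes called in C4-2 (29.6% higher, 29.5% lower) and the 48.0% called in 22Rv-1 (23.9% higher, 24.1% lower). The list of 10 other effectors of RAB27 and RAB3 took in RIMS3 and RIMS4 as relatives of RIMS2. Whether these bind RAB3 was not tested, so its counts may not be of effectors alone. In C4-2, 8 of the 10 genes were tested, with 4 called higher and 1 called lower. Their median log2 change was 0.43 against 0.01 for all genes. RPH3AL, an effector of both GTPase families, stood at 17.7 ± 0.606 CPM in C4-2 ARv7 and 11.5 ± 0.757 in C4-2 control cells (edgeR adjusted p = 0.000242). RIMS3, of the presynaptic active zone, was higher in C4-2 ARv7 cells (log2 0.95, edgeR adjusted p = 0.000212). In 22Rv-1, 9 were tested, with 3 higher and 3 lower and a median of 0.35. Limma on log2(FPKM + 1) called 0 higher, but its filter on mean FPKM left out UNC13D, which was not tested there. UNC13D, the RAB27 effector that primes lytic granules, stood at 7.75 ± 1.43 CPM in shARv7 and 3.93 ± 1.13 in shcontrol cells (edgeR adjusted p = 2.06e-05). RIMS3 was lower there, at 41.96 ± 3.27 CPM in shARv7 and 78.6 ± 5.50 in shcontrol cells (edgeR adjusted p = 2.14e-18), and so was RIMS2 (log2 -0.65, edgeR adjusted p = 7.80e-13). RIMS4 was higher in C4-2 ARv7 cells (log2 0.49, edgeR adjusted p = 0.0225), a call lost in 3 of 14 alternative fits, without ARv7 replicate 1, ARv7 replicate 3 or control replicate 2 (edgeR adjusted p = 0.0585, 0.0691 and 0.146).

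Of 16 regulators of RAB27 and RAB3, all were tested in both lines. In C4-2, 4 were higher and 9 lower with a median of -0.24, but with total counts 7 were higher and 4 lower, and without control replicate 1 there were 7 higher. TBC1D10C, of a family of RAB27 GTPase-activating proteins, was at 31.6 ± 2.73 CPM in C4-2 ARv7 and 4.59 ± 1.204 in C4-2 control cells (6.80-fold, edgeR adjusted p = 6.21e-12). In 22Rv-1, 3 were higher and 7 lower with a median of -0.16. CHML, an escort protein for prenylation of RABs, was higher in both lines, at 25.6 ± 3.13 CPM in C4-2 ARv7 and 14.5 ± 0.889 in C4-2 control cells, and at 49.5 ± 0.986 in 22Rv-1 shARv7 and 29.8 ± 0.896 in shcontrol cells (edgeR adjusted p = 6.82e-06 and 1.53e-12). RABIF, a chaperone of nucleotide-free RABs, was lower in both (log2 -0.54 and -0.42, edgeR adjusted p = 0.000272 and 0.000204), and RAB3GAP1, the catalytic subunit of the RAB3 GTPase-activating complex, was lower in 22Rv-1 (log2 -0.51, edgeR adjusted p = 1.47e-06).

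Of 24 exocytic SNAREs and partners, 20 were tested in C4-2, with 4 higher, 9 lower and a median of -0.20; limma on log2(FPKM + 1) called 5 lower. VAMP8, a vesicle SNARE of granule exocytosis, stood at 40.2 ± 1.05 CPM in C4-2 ARv7 and 86.3 ± 3.76 in C4-2 control cells (edgeR adjusted p = 8.33e-11). STX1A, a syntaxin of the plasma membrane, was lower and the complexin gene CPLX1 higher (log2 -0.94 and 0.78, edgeR adjusted p = 0.000564 and 6.14e-06). In 22Rv-1, 23 were tested, with 6 higher, 7 lower and a median of -0.05. CPLX2 stood at 35.3 ± 1.58 CPM in shARv7 and 138.9 ± 5.05 in shcontrol cells (edgeR adjusted p = 9.15e-41). UNC13B, a vesicle priming factor, stood at 383 ± 7.66 CPM in shARv7 and 188 ± 4.87 in shcontrol cells (edgeR adjusted p = 9.18e-32). SNAP25, a membrane SNARE of neurons and endocrine cells, was lower (log2 -0.83, edgeR adjusted p = 4.95e-12).

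Of 22 synaptotagmins and related C2 proteins, 10 were tested in C4-2, with 3 higher, 3 lower and a median of 0.03. In 22Rv-1, 12 were tested, with 7 higher, 1 lower (2 without shcontrol replicate 3) and a median of 0.22. SYT7, a calcium sensor of lysosome and granule exocytosis, was at 56.7 ± 2.38 CPM in C4-2 ARv7 and 80.7 ± 2.29 in C4-2 control cells, and at 138 ± 8.13 in 22Rv-1 shARv7 and 104 ± 4.38 in shcontrol cells (edgeR adjusted p = 2.75e-06 and 4.64e-09). SYT4 was lower and DOC2A higher in C4-2 ARv7 cells (log2 -0.89 and 1.05, edgeR adjusted p = 8.49e-05 and 1.40e-06). DOC2A and SYT17 were higher in 22Rv-1 shARv7 cells by log2 0.23 and 0.44 (edgeR adjusted p = 0.0322 and 0.0115), calls that did not hold in 6 and 3 of 14 alternative fits.

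Of 13 other RABs of secretion, 11 were tested in C4-2, with 3 higher and 3 lower (1 with total counts), and 10 in 22Rv-1, with 4 higher and 2 lower (1 with total counts and without any of shARv7 replicates 2 and 3 and shcontrol replicates 1 and 2). The medians were -0.01 and 0.14. RAB26, a GTPase of secretory granule maturation, was at 68.6 ± 4.22 CPM in C4-2 ARv7 and 118 ± 10.6 in C4-2 control cells, and at 37.3 ± 2.66 in 22Rv-1 shARv7 and 28.3 ± 3.40 in shcontrol cells (edgeR adjusted p = 2.97e-08 and 0.000108). The recycling GTPase genes RAB25 and RAB15 were higher in C4-2 ARv7 cells (log2 0.72 and 0.46, edgeR adjusted p = 1.68e-07 and 0.000448), and RAB11A was higher in 22Rv-1 shARv7 cells (log2 0.35, edgeR adjusted p = 2.23e-08). RAB32 was lower there (log2 -0.41, edgeR adjusted p = 0.0371), a call lost in 6 of 14 alternative fits.

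The exocyst, the complex that tethers vesicles to the membrane, was called for 3 genes in C4-2 and 2 in 22Rv-1, against 59.1% and 48.0% of all genes: of 9 genes tested in each line, 2 were higher and 1 lower in C4-2, and 0 higher and 2 lower in 22Rv-1, with medians of 0.08 and 0.02. With total counts, 5 were higher and 0 lower in C4-2, and 0 higher and 1 lower in 22Rv-1. Leaving out ARv7 replicate 1 or 2 left 1 higher in C4-2 and leaving out ARv7 replicate 3 left 0 lower, while in 22Rv-1 there were 4 lower without shcontrol replicate 3 and 1 without shARv7 replicate 2 or 3 or shcontrol replicate 1 or 2. EXOC7, its membrane-binding subunit, was at 180.0 ± 5.86 CPM in C4-2 ARv7 and 139 ± 3.78 in C4-2 control cells (edgeR adjusted p = 3.01e-05), and EXOC5 was lower in 22Rv-1 shARv7 cells (log2 -0.23, edgeR adjusted p = 0.00109; not called by limma, adjusted p = 0.0764). EXOC2 and EXOC4 in C4-2 and EXOC4 in 22Rv-1 had log2 changes of 0.31, -0.21 and -0.16 (edgeR adjusted p = 0.0203, 0.00664 and 0.0359). The 2 calls in C4-2 were each kept in 11 of 14 alternative fits. The EXOC4 call in 22Rv-1 was kept in 5 of 14 and was also lost in limma (adjusted p = 0.178).

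**Figure D4:**
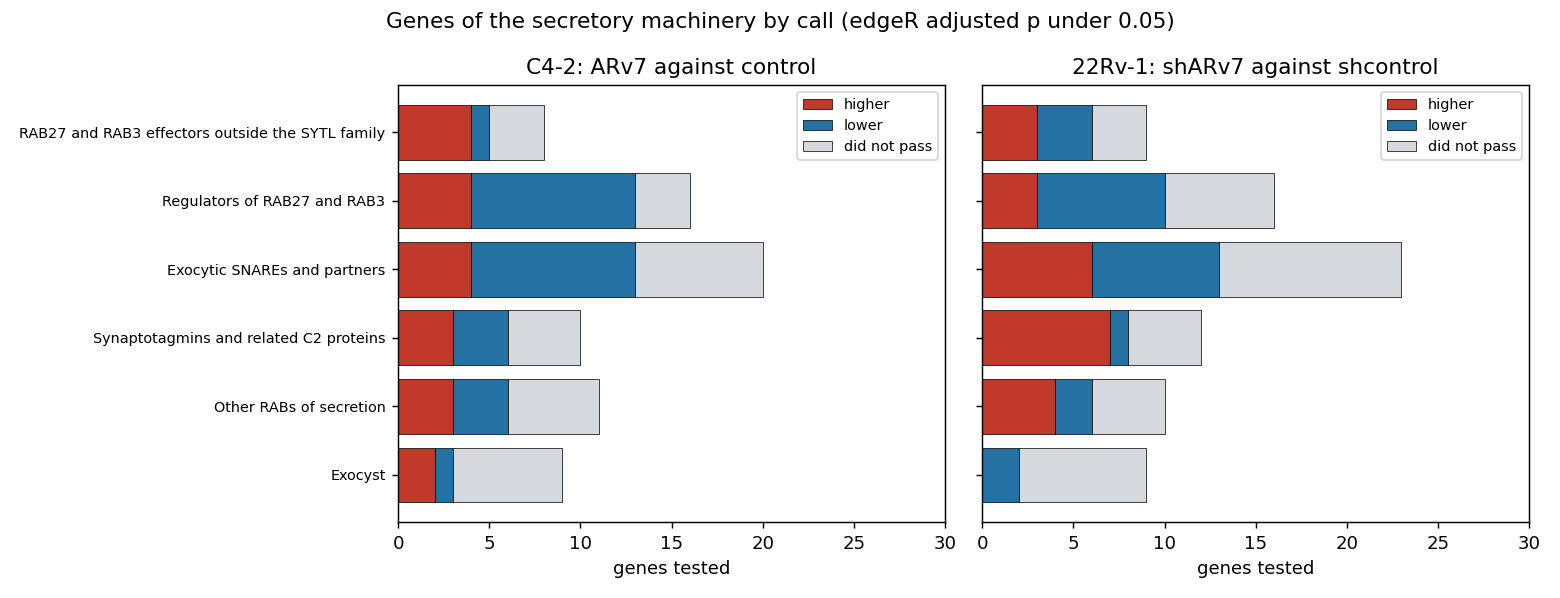
Number of genes tested in each list of the secretory machinery (horizontal axis), split by those called higher, called lower and not passing, for C4-2 cells (left) and 22Rv-1 cells (right). In C4-2 the regulators and the exocytic SNAREs have 9 lower calls each, of 16 and 20 tested, where 29.5% of all genes were called lower. The counts of both lists changed in alternative fits given in the text. In 22Rv-1 the synaptotagmin list has 7 higher calls of 12 tested, where 23.9% of all genes were called higher. Among these, the calls of DOC2A and SYT17 were kept in 8 and 11 of 14 alternative fits.

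Because RAB3 and SYTL genes also serve endocrine secretion, markers of neuroendocrine cells were read beside them. Their summed level was 3.49 to 4.08 CPM in C4-2 ARv7 and 4.04 to 5.68 in C4-2 control libraries, with INSM1 at 0 counts in both groups. In 22Rv-1 it was 64.1 to 72.4 CPM in shARv7 and 98.6 to 109 in shcontrol libraries, with 5 of 6 markers at 1 CPM or more in both groups. It was thus lower in shARv7 cells. Of the genes named above for 22Rv-1 from the effector, SNARE and synaptotagmin lists, RIMS2, RIMS3, CPLX2 and SNAP25 were lower there too. The others, UNC13B, UNC13D, SYT7, SYT17 and DOC2A, were higher, and the part of the marker sum in any of these changes was not tested. The 4 fibroblast markers summed to 10.6 to 12.3 CPM in C4-2 ARv7 and 7.5 to 9.51 in C4-2 control libraries, and to 22.0 to 26.2 in 22Rv-1 shARv7 and 39.2 to 42.9 in shcontrol libraries. In 22Rv-1 LUM averaged 2.31 CPM in shARv7 and 22.1 in shcontrol cells, and DCN 0.167 in shARv7 and 2.33 in shcontrol cells, while COL1A1 averaged 21.1 in shARv7 and 16.9 in shcontrol cells. The 5 leukocyte and platelet markers summed to at most 1.55 CPM in any C4-2 library and 5.30 in any 22Rv-1 library, with PF4 at 0 in all. The endothelial pair reached at most 1.09 CPM, and the 3 melanocyte markers summed to 3.57 to 8.48 CPM with TYR at 0.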

How the data were processed

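RNA of 12 cell line libraries was sequenced on an Illumina instrument, and reads were trimmed with Cutadapt 2.7, per the labels' protocols. No source used here names the aligner, counter or strand, so reads of overlapping or antisense genes cannot be told apart. The authors deposited raw read counts per gene and FPKM, which equalled the count over gene length and library total to within a relative 1.8e-07. The submitters' processing notes name hg18, but of the gene IDs 19876 were in GENCODE 29 (GRCh38), and 19869 of these started or ended within 10000 bp of it, so coordinates are read as GRCh38. Of 19974 lines, 1 held only a broken annotation and was left out.

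Counts went into edgeR 4.0.16 (filterByExpr, TMM, glmQLFit, glmQLFTest), each line alone and all 12 libraries for the difference between lines. Standard errors are the log2 change over the square root of F. Exact binomial intervals and floors cover counting error only. The steps were tested on simulated data. Alternatives were DESeq2 1.42.0, its size factors, total counts, no filter, a mean of at least 5 CPM, 1 fit of all libraries, a replicate block, limma 3.58.1 on log2(FPKM + 1) and leaving out each library.

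Members and lists were chosen with earlier results of these data known. Named were all members, up to 3 called genes per list and line with the largest log2 change at a mean of at least 5 CPM, and the 5 nearest patterns of SYTL2 and RAB3B at that mean. The targeted gene and some markers are not reported here.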

Additional observations from a re-analysis of the deposited data

Results flagged for a closer look

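In the change from lower to higher ARv7, C4-2 and 22Rv-1 cells differed for RAB27B by 2.22, for RAB27A by -1.52, for RAB3D by 1.08, for SYTL5 by 1.29 and for SYTL1 by -0.22 on the log2 scale, each past the threshold in the test of the difference in edgeR. The SYTL1 difference was -0.04 with total counts, and the SYTL5 difference 0.93 without C4-2 ARv7 replicate 2, neither of them called. For RAB3B the changes went in opposite directions relative to ARv7 in every library, lower in ARv7 cells of C4-2 and lower in ARv7-depleted cells of 22Rv-1. That difference was -1.40 and was not tested, because RAB3B was picked for its changes. In all these differences the line cannot be told apart from the manipulation, ARv7 raised in C4-2 and depleted in 22Rv-1.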

How the results depend on the processing

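The calls of SYTL4, RAB27A, RAB27B and RAB3D in both lines and of SYTL5 in 22Rv-1 kept their direction and their side of the threshold in all 14 alternatives of each. Of the 8 relatives of SYTL2 and RAB3B, 4 were called in C4-2 in each alternative, and 5 or 6 in 22Rv-1. SYTL2 ranged from log2 -2.11 to -1.34 in C4-2 and from 1.65 to 1.85 in 22Rv-1, and RAB3B from -0.68 to -0.47 and from -0.80 to -0.54. Changes in C4-2 that had not passed turned sign: SYTL1 to 0.0892 with total counts and 0.0858 with limma on log2(FPKM + 1), and RAB3A to 0.124 and 0.116. Leaving out 1 library gave -0.603 to 0.00603 for SYTL5 and -0.0785 to 0.0680 for RAB3A in C4-2. The cause was not tested. Limma, which adds 1 to each FPKM, gave smaller changes for low genes, such as log2 -0.58 for SYTL4 and 0.86 for SYTL5 in 22Rv-1. The count of called genes stayed within 1.5 times of 7557 in C4-2, 6467 in 22Rv-1 and 7211 for the difference between lines. Of the C4-2 calls 50.03% were higher with TMM, 67.2% with total counts and 65.6% with limma on log2(FPKM + 1). Total counts moved the median of all genes in C4-2 by about 0.15, to 0.15 against 0.01 on the log2 scale. Same-numbered libraries did not deviate together (correlations -0.06 to 0.02). With the replicate block 7310 genes were called in C4-2 and 6203 in 22Rv-1, and 4 and 5 of the 8 relatives, with SYTL1 lost in 22Rv-1 (edgeR adjusted p = 0.0658). Depth limits SYTL3 and, in C4-2, SYTL5.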
